A study of Mus musculus with 35 samples.

Results

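The 8 genes described here encode the colony-stimulating factors Csf1 (M-CSF), Csf2 (GM-CSF) and Csf3 (G-CSF) and their receptor chains Csf1r, Csf2ra, Csf2rb, Csf2rb2 and Csf3r. They were chosen by symbol, and each matched 1 of the 47069 gene identifiers in the deposited tables. The values are FPKM (fragment counts corrected for gene length and for library size), from RNA sequencing of cultured mouse bone marrow-derived macrophages. Macrophages of C57BL/6 mice were grown from marrow in L929 cell-conditioned medium and then received, for 24 h, vehicle (DMSO), 100 nM dexamethasone (Dex, a synthetic glucocorticoid), 100 ng/ml lipopolysaccharide (LPS, a bacterial cell wall component), LPS + Dex, 1 µg/ml DAMPs (danger-associated molecular patterns, of a composition not given in the sources used here) or DAMPs + Dex. Each of these 6 treatments was applied to wild-type (WT) cells and to cells labelled AMPKa1-/-, with 3 libraries per group, except WT LPS, where replicates 2 and 3 were at hand and the first was not analysed here. In all there were 17 WT libraries and 18 labelled AMPKa1-/-, of 15837203 to 31955298 fragments each as inferred from the spacing of low FPKM values. All cultures shared the L929 medium, itself a source of CSF1 protein, and the study states that after differentiation the cells were washed and kept in serum-free medium overnight. The study's methods describe mixed-sex cohorts of young adult mice without naming AMPKa1-/- animals, and how that allele was made is not given in the sources used here.

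Colony-stimulating factors control the survival, growth and function of myeloid cells. CSF1 binds CSF1R, a receptor tyrosine kinase that macrophages need for survival, and macrophages take up and degrade CSF1 through it. GM-CSF binds the alpha chain encoded by Csf2ra, which signals only together with the beta chain encoded by Csf2rb. Csf2rb2 is a second mouse beta chain, which pairs with the IL-3 receptor alpha chain. G-CSF binds CSF3R, best known for its part in neutrophil production. The beta chains and CSF3R signal mainly through JAK2 and the STAT proteins. Activated macrophages are known producers of GM-CSF and G-CSF, and glucocorticoids are known to repress many inflammatory cytokine genes.

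The main patterns are as follows. LPS raised Csf2, Csf3, Csf2rb and Csf3r and lowered Csf1r in both genotypes. Dex alone lowered 4 of the 5 receptor genes (Csf2ra, Csf2rb, Csf2rb2 and Csf3r), where 30.9% of all genes tested were called in WT and 27.9% labelled AMPKa1-/-. Csf1 and Csf1r stayed short of the threshold. Csf2 and Csf3 did too, but they were at or near 0 without LPS, so Dex alone could not lower them. Dex added to LPS brought Csf2 from 23.3 FPKM or more to 0.218 FPKM or less, lowered Csf2rb, Csf2rb2 and Csf3r, and raised Csf1r. The WT call of Csf2rb was lost in 5 of 10 alternative fits and that of Csf2rb2 in 1. DAMPs alone moved none of the 8 genes past the threshold, where 2.01% of all genes were called in WT and 4.13% labelled AMPKa1-/-. Dex added to DAMPs lowered the same 4 receptor genes that it lowered alone, where 24.3% and 25.3% of all genes were called. Of these, the Csf2ra call was lost in 7 of 11 alternative fits in WT and in 5 of 11 labelled AMPKa1-/-. Significance was assigned with limma on log2(FPKM + 1) across the 11354 genes with a mean of at least 1 FPKM, at a Benjamini-Hochberg adjusted p under 0.05, and "called" below means past that threshold. All 8 genes passed the filter, but Csf2 and Csf3 did so only through the groups that received LPS.

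In the GENCODE M21 annotation (GRCm38), the ligand genes are Csf1 (ENSMUSG00000014599, chr3:107741048-107760469, minus strand), Csf2 (ENSMUSG00000018916, chr11:54247271-54249667, minus strand) and Csf3 (ENSMUSG00000038067, chr11:98701263-98703629, plus strand). The GM-CSF receptor alpha gene is Csf2ra (ENSMUSG00000059326, chr19:61223957-61228429, minus strand). The beta chain genes lie next to each other, Csf2rb (ENSMUSG00000071713) at chr15:78325752-78353847 on the plus strand and Csf2rb2 (ENSMUSG00000071714) at chr15:78282507-78305721 on the minus strand. Csf3r (ENSMUSG00000028859) lies at chr4:126024550-126044440 on the plus strand. The identifier of Csf1r is ENSMUSG00000024621. Csf2rb and Csf2rb2 are near-identical copies in part: 12.3% of the 50-base words of the Csf2rb transcripts and 18.4% of those of Csf2rb2 occur in both, so reads from these stretches could have been split between them in a way the sources used here do not describe.

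Csf2ra, Csf2rb, Csf2rb2 and Csf3r fell with Dex, and for that reason the 250 bases upstream of the RefSeq start sites are shown for the 3 of them matched in the RefSeq table, Csf2ra, Csf2rb2 and Csf3r (RefSeq, GRCm38.p6, gene strand, 5′ to 3′). Capitals mark matches, on either strand, to GAGGAA, the core letters bound by the myeloid factor PU.1, or to TTNNGNAA, the letters bound by C/EBP factors.
Csf2ra, chr19:61228419-61228668, minus strand: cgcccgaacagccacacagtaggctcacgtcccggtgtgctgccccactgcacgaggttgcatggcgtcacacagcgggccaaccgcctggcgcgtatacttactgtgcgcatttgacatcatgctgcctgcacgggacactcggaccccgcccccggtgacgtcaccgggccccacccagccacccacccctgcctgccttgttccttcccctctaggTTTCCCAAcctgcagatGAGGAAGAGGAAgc
Csf2rb2, chr15:78305722-78305971, minus strand: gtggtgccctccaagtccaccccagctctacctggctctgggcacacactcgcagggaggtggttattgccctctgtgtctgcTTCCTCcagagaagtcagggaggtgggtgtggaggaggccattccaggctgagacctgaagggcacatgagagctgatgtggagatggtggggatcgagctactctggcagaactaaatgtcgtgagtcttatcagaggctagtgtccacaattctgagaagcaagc
Csf3r, chr4:126024409-126024658, plus strand: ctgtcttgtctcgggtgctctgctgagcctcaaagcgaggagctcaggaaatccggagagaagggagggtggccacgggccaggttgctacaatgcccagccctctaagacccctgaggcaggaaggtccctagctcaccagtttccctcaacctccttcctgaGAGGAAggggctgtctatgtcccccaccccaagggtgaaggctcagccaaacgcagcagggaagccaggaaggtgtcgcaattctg
The 3 windows shown held the PU.1 letters, which 23.3% of the 32851 windows of this length in the RefSeq table also held. Csf2ra had them in tandem, at -14 to -9 and -8 to -3 counted from the start site, Csf2rb2 at -167 to -162 and Csf3r at -86 to -81. The Csf2ra window also held the C/EBP letters at -31 to -24, present in 36.8% of all windows. None of the 3 windows held TGANTCA (AP-1, 6.75% of all windows), AGAACA (the hexamer of the glucocorticoid receptor's site, 16.1%) or the NF-kB consensus (3.90%). GENCODE places the outermost start of Csf3r 109 bases and that of Csf2ra 11 bases further upstream, so that part of these windows is transcribed in some models. The table matched 5 of the 8 genes, those not shown being Csf1 and Csf2, whose windows did not hold the PU.1 letters. The Csf1 window held AGAACA at -124 to -119 and the NF-kB consensus at -154 to -145. The Csf2 window held the C/EBP letters at -145 to -138.

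Prkaa1 (ENSMUSG00000050697), which encodes AMPK alpha 1 and is the gene named in the genotype label, had 11.8 to 15.9 FPKM in the WT vehicle libraries and 14.8 to 16.5 FPKM in those labelled AMPKa1-/-. The level was not lower in the labelled libraries (mean 15.6 ± 0.861 against 14.3 ± 2.19 FPKM, SD, n = 3, log2 fold change 0.12 ± 0.23 SE, limma adjusted p = 1). In the other treatments the means were 22.8 with Dex, 12.9 with LPS, 14.3 with LPS + Dex, 13.8 with DAMPs and 17.7 FPKM with DAMPs + Dex in WT. Labelled AMPKa1-/-, they were 18.6, 10.2, 11.7, 14.3 and 21.9 FPKM in the same order. A whole-gene FPKM also counts exons outside any deleted stretch, so it neither checks the label nor goes against a deletion, and the second genotype is called labelled AMPKa1-/- throughout.

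The cultures carried the markers of macrophages. All 6 macrophage markers were above 0 in all 35 libraries, with Adgre1 (F4/80) at 474 FPKM or more and Lyz2 (lysozyme) at 10343 FPKM or more. Of the dendritic cell markers, Cd209a and Siglech reached at most 0.0625 FPKM and Flt3 0.444, while Zbtb46 (up to 0.686 FPKM) was at 0 in 1 library only and Xcr1 (0.0283 to 1.56 FPKM) in none. The mast cell and basophil marker Fcer1a was listed at 0 in all libraries, Mcpt8 reached 0.147 and Cpa3 0.878 FPKM, with Cpa3 at 0 in 14 libraries. The T cell marker Cd3e reached at most 0.0772 FPKM, but Cd4 ranged from 0.574 to 34.95 FPKM over the libraries. Cd4 was the only tested gene of the T cell list. With LPS against vehicle it was called lower in WT (log2 fold change -3.16) and labelled AMPKa1-/- (-2.66). The B cell markers Ms4a1 and Cd79a reached at most 0.0489 and 0.821 FPKM, and the 2 endothelial markers summed to at most 6.00 FPKM, nearly all of it Pecam1. The neutrophil markers Ly6g, Elane, Mpo, Retnlg and Cxcr2 did not exceed 0.475 FPKM in any library, but the other 3 of the list did, with Camp up to 133, Ngp up to 7.56 and Ltf up to 6.20 FPKM. In bulk RNA, fewer cells of a type and less RNA per cell cannot be told apart.

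The receptors of M-CSF and GM-CSF ranked high among all genes. In WT vehicle cells, Csf1r averaged 577 ± 85.8 FPKM (SD, n = 3) and ranked 194th by mean FPKM, and Csf2ra averaged 528 ± 40.1 FPKM and ranked 217th. Their levels did not differ beyond their spread. Csf3r followed with 65.9 ± 11.5 FPKM, Csf2rb with 49.9 ± 8.37 FPKM and Csf2rb2 with 22.3 ± 3.77 FPKM, and the ranges of Csf3r and Csf2rb overlapped. Csf1 averaged 2.29 ± 1.57 FPKM. Csf3 was listed at 0 in all 3 WT vehicle libraries, and Csf2 at 0 in 2 of them, with 1 fragment (0.0680 FPKM) in the other.

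Among the ligand genes, Csf2 rose most with LPS. Csf2 was at 28.4 and 25.4 FPKM in the WT LPS libraries and at 23.3, 26.2 and 98.9 FPKM in those labelled AMPKa1-/-. Without LPS it was listed at 0 in all libraries of both genotypes except the 1 WT vehicle library above. The LPS libraries were thus all far above the rest, and replicate 3 labelled AMPKa1-/- stood apart from the other 2 of its group. Because FPKM and gene length gave whole fragment numbers for Csf2 and Csf3 in every library, the depth behind these values is known: 967 fragments in the 2 WT LPS libraries and 2336 in the 3 labelled AMPKa1-/-, against 1 in WT vehicle and 0 in vehicle labelled AMPKa1-/-. A count of 0 allows up to 3 fragments, which for Csf2 correspond to 0.117 to 0.237 FPKM over the libraries. The fitted log2 difference between LPS and vehicle was 4.77 ± 0.30 (SE, adjusted p = 1.43e-13) in WT and 5.34 ± 0.27 (adjusted p = 8.49e-16) labelled AMPKa1-/-. These fitted values depend on the pseudocount of 1 and are no measure of the true fold, since the vehicle libraries are at or near 0.

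With Dex added to LPS, nearly all of the Csf2 signal was gone. In WT LPS + Dex, Csf2 was at 0.0444, 0 and 0.218 FPKM, 5 fragments in all. Labelled AMPKa1-/-, it was at 0.151, 0.0680 and 0.0677 FPKM, also 5 fragments in all. Every LPS + Dex library lay far below every LPS library of its genotype. The fitted difference between LPS + Dex and LPS was -4.68 ± 0.30 (adjusted p = 6.46e-13) in WT and -5.20 ± 0.27 (adjusted p = 4.56e-15) labelled AMPKa1-/-. LPS + Dex was not called different from vehicle in either genotype (adjusted p = 0.81 and 0.693).

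Csf3 also rose with LPS, but Dex left a large part of it. Csf3 was at 11.2 and 4.55 FPKM in WT LPS and at 12.3, 11.7 and 24.0 FPKM in LPS labelled AMPKa1-/-. With LPS + Dex it was at 4.52, 1.85 and 11.7 FPKM in WT and at 2.03, 3.35 and 11.1 FPKM labelled AMPKa1-/-. The WT LPS and LPS + Dex libraries overlapped, whereas those labelled AMPKa1-/- did not, though replicate 3 with LPS + Dex (11.1) came close to replicate 2 with LPS (11.7). LPS raised Csf3 by 3.04 ± 0.43 on the log2 scale in WT (adjusted p = 8.44e-07) and by 4.01 ± 0.39 labelled AMPKa1-/- (adjusted p = 5.84e-10). Dex on top of LPS gave -0.49 ± 0.43 in WT (adjusted p = 0.419) and -1.58 ± 0.39 labelled AMPKa1-/- (adjusted p = 0.00164). A call in 1 genotype does not show a difference between them, and the interaction was -1.09 (95% interval -2.27 to 0.10, unadjusted p = 0.0707, adjusted p = 1). In contrast to Csf2, Csf3 remained above vehicle with LPS + Dex, by 2.55 ± 0.39 in WT (adjusted p = 2.69e-06) and 2.44 ± 0.39 labelled AMPKa1-/- (adjusted p = 4.71e-06). Without LPS, Csf3 was listed at 0 or below 0.18 FPKM in all libraries, and its 3-fragment limit was 0.0664 to 0.134 FPKM.

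**Figure D1:**
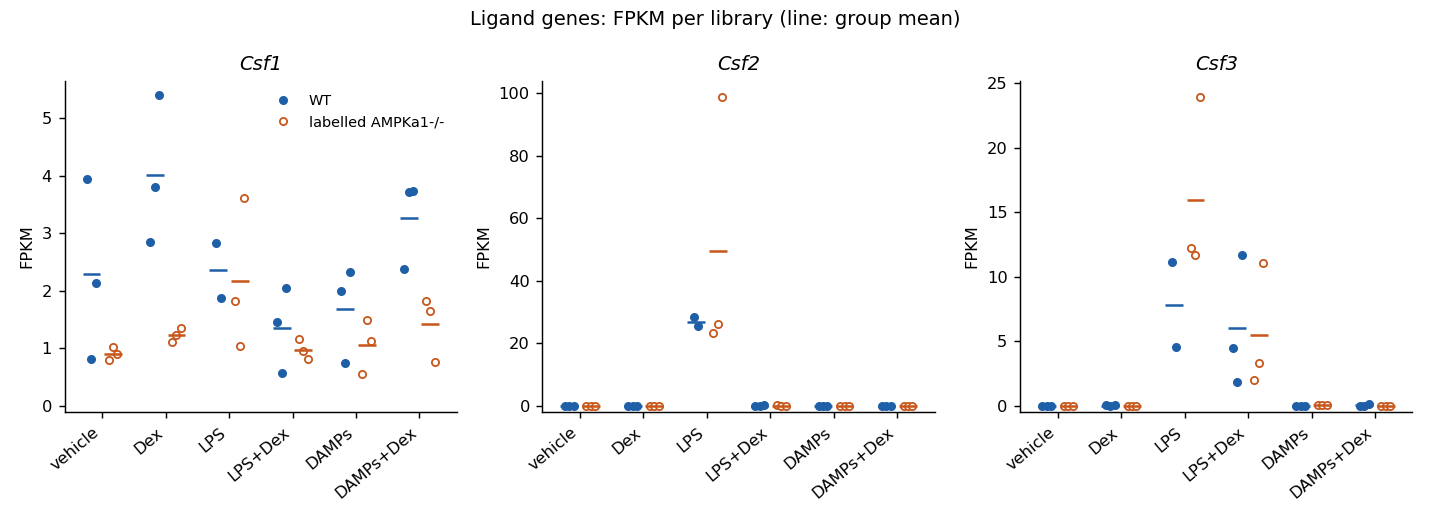
FPKM (linear axis) of the ligand genes Csf1, Csf2 and Csf3 in each library, by treatment, for WT (filled) and labelled AMPKa1-/- (open), with lines at group means. Csf2 stands above 23 FPKM in the LPS libraries only and is below 0.3 FPKM with LPS + Dex, while Csf3 keeps 1.85 to 11.7 FPKM with LPS + Dex.

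Csf1 was the least regular of the ligand genes and stayed between 0.557 and 5.40 FPKM in all libraries. In WT it was at 3.94, 0.808 and 2.14 FPKM with vehicle, at 2.84, 3.80 and 5.40 FPKM with Dex and at 2.84 and 1.88 FPKM with LPS. Labelled AMPKa1-/-, it was at 0.793, 1.02 and 0.907 FPKM with vehicle, at 1.12, 1.23 and 1.35 FPKM with Dex and at 1.83, 1.04 and 3.62 FPKM with LPS. The WT Dex and vehicle ranges overlapped, and the labelled Dex libraries all lay above their vehicle libraries by a small margin. With LPS + Dex it was at 0.574 to 2.04 FPKM in WT and 0.817 to 1.16 FPKM labelled AMPKa1-/-. No treatment against its control was called for Csf1 in either genotype, but calls appeared under other settings. With libraries centred on one median, LPS against vehicle labelled AMPKa1-/- was called (0.93 ± 0.32, adjusted p = 0.0145), as it was without LPS replicate 2, and Dex against vehicle in WT was called without vehicle replicate 1. The closest values were Dex against vehicle in WT (0.69 ± 0.32, adjusted p = 0.0966), DAMPs + Dex against DAMPs in WT (0.70 ± 0.32, adjusted p = 0.109), where the groups did not overlap, and LPS against vehicle labelled AMPKa1-/- (0.65 ± 0.32, adjusted p = 0.073).

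Fibroblast markers are given beside Csf1, whose order over the libraries they shared in some groups and not in others. The summed FPKM of 6 fibroblast markers (Col1a1, Col1a2, Col3a1, Dcn, Pdgfra and Lum), of which Col1a2 was the most abundant on average, was 18.3, 1.49 and 9.76 in the 3 WT vehicle libraries, in the same order as their Csf1 values. It was 11.9, 15.1 and 24.7 with Dex in WT, and 1.16, 2.77 and 1.38 with vehicle labelled AMPKa1-/-. WT Dex replicate 3 was highest of all libraries for both Csf1 and the sum. With LPS the orders did not match. Labelled AMPKa1-/-, the sums were 7.08, 11.01 and 8.05 where Csf1 was at 1.83, 1.04 and 3.62 FPKM, and in WT they were 13.7 and 16.4 where Csf1 was at 2.84 and 1.88 FPKM. With Dex labelled AMPKa1-/- the sums were 3.90, 4.52 and 2.99, also not in the order of Csf1. All 6 markers were above 0 in at least 10 libraries, and Lum was at 0 in 25. Macrophages are not the usual source of the collagens in this list, and the part of these markers' source in the Csf1 values was not tested.

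**Figure D2:**
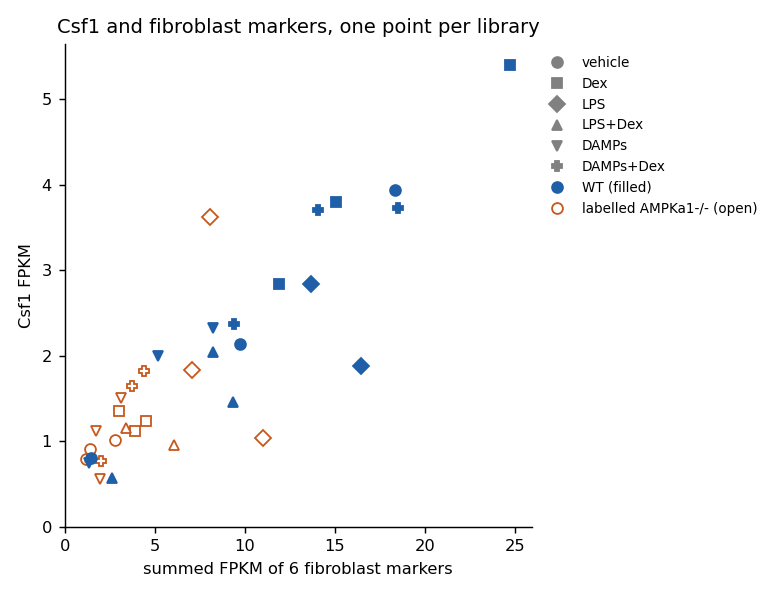
Csf1 FPKM (vertical) against the summed FPKM of 6 fibroblast markers (horizontal) with 1 point per library, shaped by treatment, filled for WT and open for labelled AMPKa1-/-. Points high for Csf1 lie mostly to the right, with WT Dex replicate 3 highest for both (5.40 and 24.7 FPKM).

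Csf1r, which encodes the CSF1 receptor, fell with LPS and was partly restored by Dex. Csf1r was at 543, 675 and 514 FPKM in WT vehicle, at 260 and 197 FPKM in WT LPS and at 399, 439 and 376 FPKM in WT LPS + Dex. In the libraries labelled AMPKa1-/-, it was at 583, 538 and 537 FPKM with vehicle, at 339, 320 and 245 FPKM with LPS and at 484, 474 and 437 FPKM with LPS + Dex. In each genotype the 3 groups were fully apart, in the order LPS, LPS + Dex, vehicle. LPS changed Csf1r by -1.34 ± 0.13 in WT (adjusted p = 1.96e-09) and by -0.89 ± 0.12 labelled AMPKa1-/- (adjusted p = 3.17e-07). Dex on top of LPS raised it by 0.83 ± 0.13 (adjusted p = 1.41e-05) and 0.64 ± 0.12 (adjusted p = 9.80e-05), respectively. LPS + Dex remained below vehicle in WT (-0.50 ± 0.12, adjusted p = 0.000848). Labelled AMPKa1-/-, the same difference was -0.25 ± 0.12 (adjusted p = 0.0788), and it was called with the replicate block (adjusted p = 0.0331). With libraries centred on one median neither was called, the WT difference being -0.28 (adjusted p = 0.098) and the other 0.04 (adjusted p = 0.84), of the opposite sign. The 6 macrophage markers summed in WT to 20417 to 26133 FPKM with vehicle, 13781 to 16970 with LPS and 27542 to 31490 with LPS + Dex. Labelled AMPKa1-/-, the sums were 21207 to 31858, 12702 to 22545 and 26690 to 38670 FPKM. Most of each sum was Lyz2, and its bearing on Csf1r was not tested.

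Dex alone left Csf1r at 488 to 576 FPKM in WT and at 601 to 662 FPKM labelled AMPKa1-/-. Neither difference from vehicle was called (-0.09, 95% interval -0.34 to 0.16, and 0.18, 95% interval -0.06 to 0.43), although the labelled groups did not overlap. The difference between the genotypes in the LPS response of Csf1r was 0.45 (95% interval 0.08 to 0.82, unadjusted p = 0.0185), which did not pass the adjustment over all genes (adjusted p = 0.947).

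Csf2ra, which binds GM-CSF, responded to Dex without LPS. It was at 573, 498 and 511 FPKM in WT vehicle and at 203, 287 and 272 FPKM in WT Dex. Labelled AMPKa1-/-, it was at 532, 437 and 598 FPKM with vehicle and at 325, 223 and 238 FPKM with Dex. No Dex library reached a vehicle library. The difference was -1.07 ± 0.22 in WT (adjusted p = 0.000511) and -1.0 ± 0.22 labelled AMPKa1-/- (adjusted p = 0.00095). In the presence of LPS no change with Dex was called. Csf2ra was at 390 and 335 FPKM with LPS and at 379, 483 and 391 FPKM with LPS + Dex in WT (0.20 ± 0.25, adjusted p = 0.582), and at 347 to 553 FPKM and 364 to 479 FPKM labelled AMPKa1-/- (-0.12 ± 0.22, adjusted p = 0.725). LPS alone gave -0.54 ± 0.25 in WT (adjusted p = 0.0637), where the groups did not overlap, and -0.23 ± 0.22 labelled AMPKa1-/- (adjusted p = 0.372).

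Both beta chain genes fell with Dex, and with LPS Csf2rb was called and Csf2rb2 was not, though the difference between the genes was not tested. Csf2rb was at 50.5, 41.2 and 57.9 FPKM in WT vehicle, at 27.8, 28.7 and 33.1 FPKM in WT Dex, at 108 and 86.8 FPKM in WT LPS and at 77.2, 62.4 and 58.1 FPKM in WT LPS + Dex. Labelled AMPKa1-/-, Csf2rb was at 50.7 to 67.5 FPKM with vehicle, 28.5 to 39.7 FPKM with Dex, 98.7 to 118 FPKM with LPS and 61.1 to 74.8 FPKM with LPS + Dex. Among these treatments, LPS libraries were highest and Dex libraries lowest in both genotypes, without overlap. LPS raised Csf2rb by 0.95 ± 0.19 in WT (adjusted p = 0.000139) and 0.94 ± 0.17 labelled AMPKa1-/- (adjusted p = 3.36e-05), and Dex alone gave -0.71 ± 0.17 (adjusted p = 0.00258) and -0.76 ± 0.17 (adjusted p = 0.00149). Dex on top of LPS gave -0.56 ± 0.19 in WT (adjusted p = 0.0271) and -0.67 ± 0.17 labelled AMPKa1-/- (adjusted p = 0.00295). The WT call was lost without LPS replicate 2 (-0.40, adjusted p = 0.279), without LPS + Dex replicate 2 (-0.52) or without LPS + Dex replicate 3 (-0.47), and also with no filter (adjusted p = 0.0509) and with only the groups compared (adjusted p = 0.0873).

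Csf2rb2 was at 23.2, 18.2 and 25.5 FPKM in WT vehicle, at 7.66, 7.25 and 9.07 FPKM in WT Dex, at 32.3 and 24.2 FPKM in WT LPS and at 18.2, 14.3 and 13.3 FPKM in WT LPS + Dex. Labelled AMPKa1-/-, it was at 21.6 to 32.3 FPKM with vehicle, 9.44 to 14.7 FPKM with Dex, 24.8 to 33.7 FPKM with LPS and 14.6 to 17.9 FPKM with LPS + Dex. Vehicle and LPS libraries overlapped, and all Dex libraries lay below all vehicle libraries. LPS was not called (0.33 ± 0.24, adjusted p = 0.259, and 0.23 ± 0.21, adjusted p = 0.361), but with libraries centred on one median it was called labelled AMPKa1-/- (0.50 ± 0.19, adjusted p = 0.0212) and was near the threshold in WT (0.48 ± 0.21, adjusted p = 0.0546). Dex alone lowered Csf2rb2 in WT (-1.37 ± 0.21, adjusted p = 1.74e-05) and labelled AMPKa1-/- (-1.08 ± 0.21, adjusted p = 0.00033). On top of LPS, Dex gave -0.84 ± 0.24 (adjusted p = 0.00687) and -0.85 ± 0.21 (adjusted p = 0.00227), and the WT call was lost without LPS replicate 2 (-0.64, adjusted p = 0.138). The ratio of Csf2rb to Csf2rb2 FPKM was 2.17 to 2.27 in the WT vehicle libraries, 3.33 to 3.59 with LPS, 3.63 to 3.95 with Dex and 4.25 to 4.36 with LPS + Dex, a description without a test, with the shared stretches of the genes as above.

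Csf3r moved furthest of the receptor genes between LPS and LPS + Dex. It was at 76.0, 53.4 and 68.4 FPKM in WT vehicle, at 28.9, 28.4 and 27.0 FPKM in WT Dex, at 127 and 106 FPKM in WT LPS and at 35.1, 32.9 and 24.2 FPKM in WT LPS + Dex. Labelled AMPKa1-/-, it was at 47.8 to 65.5 FPKM with vehicle, 17.9 to 26.4 FPKM with Dex, 93.2 to 106 FPKM with LPS and 23.1 to 31.3 FPKM with LPS + Dex. Every library with Dex lay below every library without it in both genotypes. LPS raised Csf3r by 0.82 ± 0.20 in WT (adjusted p = 0.000864) and 0.83 ± 0.18 labelled AMPKa1-/- (adjusted p = 0.0002). Dex alone gave -1.19 ± 0.18 (adjusted p = 8.36e-06) and -1.25 ± 0.18 (adjusted p = 3.79e-06), and Dex on top of LPS gave -1.90 ± 0.20 (adjusted p = 1.10e-08) and -1.83 ± 0.18 (adjusted p = 2.03e-09). LPS + Dex differed from vehicle by -1.08 ± 0.18 in WT (adjusted p = 9.09e-06) and -1.0 ± 0.18 labelled AMPKa1-/- (adjusted p = 2.36e-05).

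Because Csf3r is also abundant in neutrophils, the neutrophil markers are given beside it. The summed FPKM of 8 markers was 133 and 113 in the WT LPS libraries, 34.9, 32.9 and 52.2 with LPS + Dex, 0.726 to 1.46 with Dex and 0.527 to 10.1 with vehicle. In the labelled libraries it was 95.7 to 118 with LPS, 25.1 to 37.5 with LPS + Dex, 6.08 to 12.4 with Dex and 2.16 to 15.5 with vehicle. The most abundant gene of the list was Camp (cathelicidin), at 133 FPKM in WT LPS replicate 2, which LPS raised by 6.30 ± 0.33 in WT (adjusted p = 4.05e-15) and Dex on top of LPS lowered (-1.62 ± 0.33, adjusted p = 0.00031). Ngp and Ltf were not called with LPS in WT (-1.20 and -0.79), and Ltf fell labelled AMPKa1-/- (-1.65 ± 0.41, adjusted p = 0.000984). Of the 8 markers, Ly6g was at 0 in 31 of the 35 libraries, Retnlg in 32, Mpo in 22, Elane in 20, Cxcr2 in 10, Ltf in 4 and Ngp and Camp in 2 each. Csf3r was at 17.9 FPKM or more in every library, and whether the source of Camp had a part in its values was not tested.

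**Figure D3:**
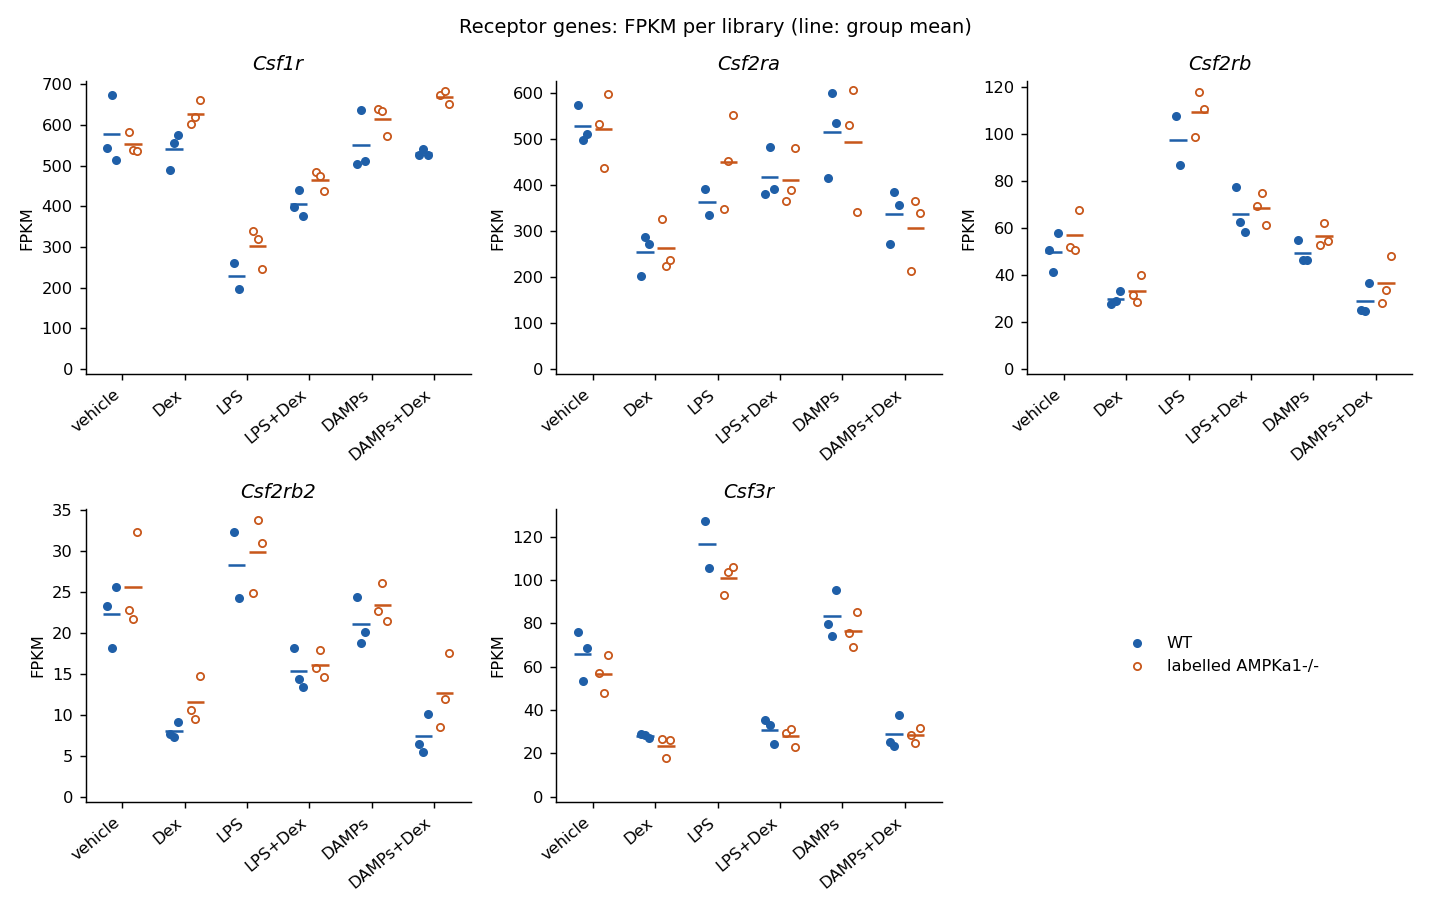
FPKM (linear axis from 0) of the 5 receptor genes in each library, by treatment, for WT (filled) and labelled AMPKa1-/- (open), with lines at group means. Csf1r is lowest with LPS, Csf2rb and Csf3r are highest with LPS, and Csf2ra, Csf2rb2 and Csf3r are low in the libraries with Dex alone.

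Counted over the 8 genes, LPS against vehicle called 5 in WT (4 higher, 1 lower), where 55.7% of all genes tested were called, and 5 labelled AMPKa1-/- (background 64.3%), the latter 7 with libraries centred on one median (Csf1 and Csf2rb2 added). Dex against vehicle called 4 in WT (background 30.9%) and 4 labelled AMPKa1-/- (background 27.9%), all lower. LPS + Dex against LPS called 5 in WT (1 higher, 4 lower, background 34.1%) and 6 labelled AMPKa1-/- (1 higher, 5 lower, background 37.7%). LPS + Dex against vehicle called 4 in WT (background 54.2%) and 3 labelled AMPKa1-/- (background 57.4%), with Csf3 higher and Csf2rb2 and Csf3r lower in both, and Csf1r lower in WT. The WT call of Csf2rb2 in this comparison (-0.52, adjusted p = 0.0434) was lost without vehicle replicate 1 or 3 and without LPS + Dex replicate 2 or 3 (-0.48 to -0.42), and that labelled AMPKa1-/- (-0.62, adjusted p = 0.0154) without replicate 3 of either group (-0.45 and -0.56). Centred on one median, neither Csf2rb2 difference was called (-0.29 and -0.33), and Csf2rb was called higher (0.62 and 0.56), where the median of all genes was -0.23 in WT and -0.28 labelled AMPKa1-/- before centring. Csf2 and Csf3 passed the filter only through the groups in which they were high, and without them LPS against vehicle called 3 of 6 in each genotype and LPS + Dex against LPS 4 of 6. With LPS the share was near the background, and these counts say nothing particular of the family. Over all genes tested, the median log2 fold change was -0.19 for LPS against vehicle in WT, -0.30 for LPS against vehicle labelled AMPKa1-/- and -0.03 for LPS + Dex against LPS in WT. These comparisons share their vehicle and LPS libraries and are not independent.

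Whether Dex acted differently with and without LPS was tested as an interaction. In WT, 5 of 8 genes were called (background 32.0%) and labelled AMPKa1-/- 4 of 8 (background 28.4%). Leaving aside Csf2 and Csf3, which passed the filter only through LPS groups and had no level for Dex to lower without LPS, 4 of 6 and 2 of 6 were called, the latter near the background. Csf2 was called in both (-4.65 ± 0.40, adjusted p = 1.00e-09, and -5.20 ± 0.38, adjusted p = 3.42e-11), but it was at or near 0 without LPS, so Dex could not lower it there, and these values only repeat those of Dex on top of LPS. The fall of Csf2ra with Dex was weaker with LPS by 1.27 ± 0.33 in WT (adjusted p = 0.00435) and 0.88 ± 0.31 labelled AMPKa1-/- (adjusted p = 0.0334). Csf1r was raised by Dex in the presence of LPS more than without it, by 0.92 ± 0.18 in WT (adjusted p = 0.000271) and 0.45 ± 0.17 labelled AMPKa1-/- (adjusted p = 0.0461). Csf3r fell further with Dex in the presence of LPS in WT (-0.71 ± 0.27, adjusted p = 0.0409), and the value labelled AMPKa1-/- was -0.57 ± 0.25 (adjusted p = 0.0898). Csf1 was called in WT (-1.24 ± 0.47, adjusted p = 0.0463) and Csf3 labelled AMPKa1-/- (-1.58 ± 0.54, adjusted p = 0.0299). Csf3 was listed at 0 in all vehicle and Dex libraries labelled AMPKa1-/-, so Dex could not lower it there, and this value only repeats that of Dex on top of LPS. Csf2rb and Csf2rb2 were not called in either genotype, with values between 0.09 and 0.52. The calls of Csf1r and Csf2ra in WT held without each library in turn, and those of Csf1, Csf3r, Csf3 and, labelled AMPKa1-/-, Csf1r and Csf2ra did not. In WT, the call of Csf1 was lost without vehicle replicate 2 or 3, Dex replicate 2 or 3, either LPS replicate or LPS + Dex replicate 2 (adjusted p up to 0.194), and that of Csf3r without vehicle replicate 2, Dex replicate 1 or 2, LPS replicate 2 or LPS + Dex replicate 3 (up to 0.191). Labelled AMPKa1-/-, Csf3 was lost without Dex replicate 2, LPS replicate 3 or LPS + Dex replicate 1 or 2 (up to 0.122). Csf1r was lost there without any 1 vehicle replicate, Dex replicate 1 or 2, LPS replicate 3 or LPS + Dex replicate 1 or 2 (up to 0.176), and Csf2ra without vehicle replicate 1 or 3, Dex replicate 2 or 3, LPS replicate 1 or LPS + Dex replicate 3 (up to 0.109). Centred on one median, the WT call of Csf1 (adjusted p = 0.086) and those of Csf1r (0.16) and Csf2ra (0.0682) labelled AMPKa1-/- were lost, and Csf3r was called there (-0.65 ± 0.20, adjusted p = 0.0154). With no filter, Csf2 alone stayed called labelled AMPKa1-/-, and Csf1 and Csf3r were lost in WT. A pseudocount of 0.1 left 4 genes called in WT and 3 labelled AMPKa1-/-.

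**Figure D4:**
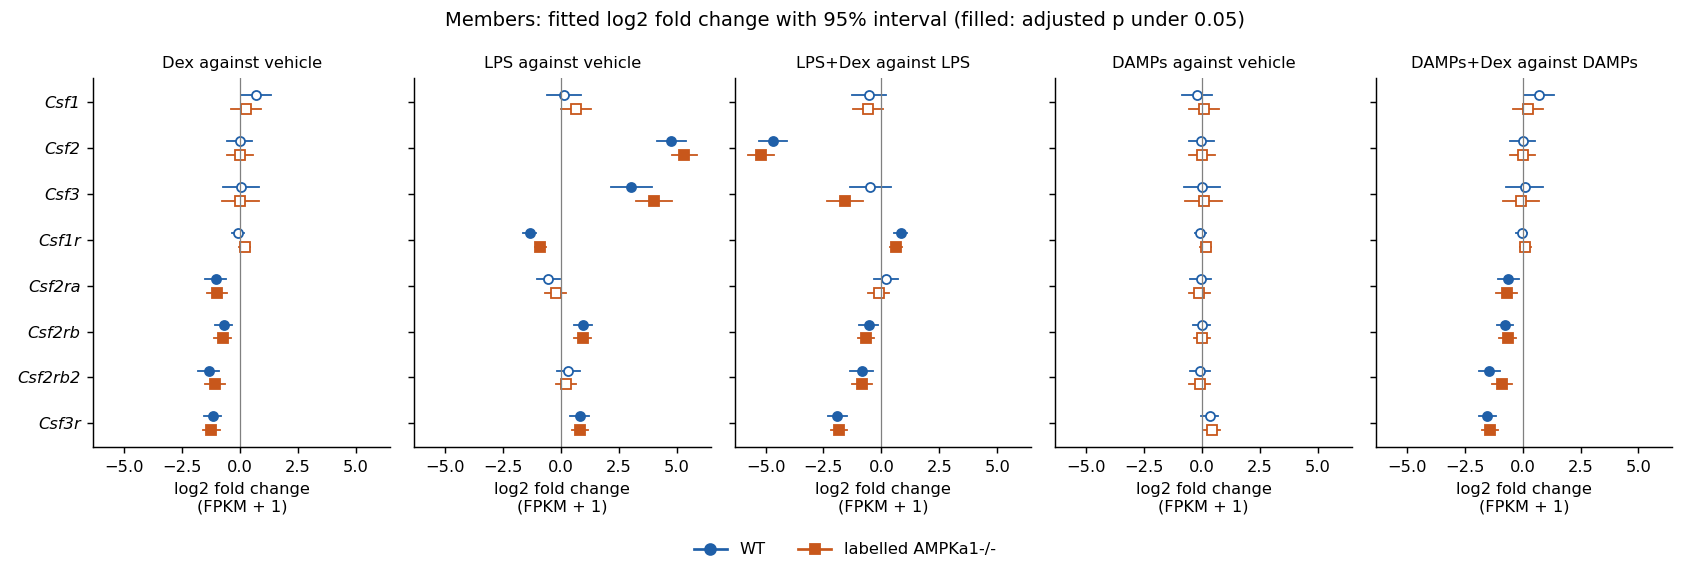
Fitted log2 fold change (FPKM + 1) with its 95% interval for the 8 genes in 5 comparisons, circles for WT and squares for labelled AMPKa1-/-, filled where the adjusted p is under 0.05. Csf2 moves to opposite sides with LPS and with Dex on top of LPS, and DAMPs alone has no filled point. With Dex alone and with Dex on DAMPs, 4 receptor genes have filled points left of 0.

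DAMPs were without a called effect on the family. Against vehicle, 0 of 8 genes were called by limma in WT (background 2.01%, 228 of 11354 genes, and 1099 at an unadjusted p under 0.05) and 0 labelled AMPKa1-/- (background 4.13%, 469 genes, and 1509 at an unadjusted p under 0.05). Csf2 was listed at 0 in all 6 DAMPs libraries, and Csf3 at 0 in WT and at 0.0392 to 0.0548 FPKM labelled AMPKa1-/-, 5 fragments in all. Csf3r came nearest to a call, at 74.4 to 95.6 FPKM in WT (0.34 ± 0.18, unadjusted p = 0.0665) and 69.0 to 85.2 FPKM labelled AMPKa1-/- (0.43 ± 0.18, unadjusted p = 0.0225, adjusted p = 0.237), and in the latter the libraries lay above all vehicle libraries. With libraries centred on one median this value was 0.49 and called (adjusted p = 0.0493). The count of all genes called in WT went from 228 to 26 without DAMPs replicate 3, 372 without DAMPs replicate 2, and 114 or 81 without vehicle replicate 1 or 3.

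DAMPs against LPS called 5 of 8 genes in WT (background 54.4%) and 4 labelled AMPKa1-/- (background 61.3%). Csf2, Csf3 and Csf2rb were lower and Csf1r was higher with DAMPs than with LPS in both genotypes, with Csf1r differing by 1.27 ± 0.13 (adjusted p = 5.69e-09) and 1.04 ± 0.12 (adjusted p = 2.20e-08). Csf3r was lower in WT (-0.48 ± 0.20, adjusted p = 0.0407), a call lost without LPS replicate 2 (-0.35, adjusted p = 0.276) and without DAMPs replicate 1 or 2, and the value labelled AMPKa1-/- was -0.40 ± 0.18 (adjusted p = 0.053). The median of all genes in this comparison was 0.16 in WT and 0.22 labelled AMPKa1-/-.

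Dex added to DAMPs lowered Csf2ra, Csf2rb, Csf2rb2 and Csf3r, 4 of 8 genes in WT (background 24.3%) and the same 4 labelled AMPKa1-/- (background 25.3%). Csf3r was at 25.4, 23.3 and 37.9 FPKM with DAMPs + Dex in WT and at 28.3, 24.8 and 31.9 FPKM labelled AMPKa1-/-, all below the DAMPs libraries. The differences of Csf3r were -1.52 ± 0.18 (adjusted p = 1.54e-07) and -1.40 ± 0.18 (adjusted p = 5.74e-07). Csf2rb2 was at 5.49 to 10.1 FPKM against 18.7 to 24.3 FPKM in WT (-1.43 ± 0.21, adjusted p = 7.88e-06) and at 8.53 to 17.5 FPKM against 21.5 to 26.1 FPKM labelled AMPKa1-/- (-0.89 ± 0.21, adjusted p = 0.00249). Csf2rb gave -0.77 ± 0.17 (adjusted p = 0.00137) and -0.64 ± 0.17 (adjusted p = 0.00634), the latter not called without DAMPs + Dex replicate 1 (-0.48, adjusted p = 0.0679). Csf2ra was at 272 to 384 FPKM against 415 to 599 FPKM in WT (-0.61 ± 0.22, adjusted p = 0.0425) and at 213 to 365 FPKM against 341 to 606 FPKM labelled AMPKa1-/- (-0.68 ± 0.22, adjusted p = 0.022), where the groups overlapped. The Csf2ra calls were lost in WT without DAMPs replicate 2 or 3 or DAMPs + Dex replicate 1 or 3 (-0.66 to -0.46), and labelled AMPKa1-/- without DAMPs replicate 1 or 2 or DAMPs + Dex replicate 1 (-0.61 to -0.44). Csf1r stayed at 526 to 540 FPKM in WT and 653 to 684 FPKM labelled AMPKa1-/-, with neither difference called.

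Between the genotypes no member of the family was called in vehicle, in the response to LPS or in that of LPS-treated cells to Dex. Within the other treatments the genotypes were not compared directly. There their libraries did not overlap for Csf1, Csf1r, Csf2rb2 and Csf3r with Dex. The same held for Csf1 and Csf1r with DAMPs + Dex, and for Csf3 with LPS and with DAMPs. With DAMPs, Csf3 rested on 5 fragments in all labelled AMPKa1-/- against 0 in WT. The share of all genes without overlap was not counted, so these cases do not show a difference by genotype. In vehicle, 0 of 8 genes were called by limma (background 0.432%, 49 genes, with 700 at an unadjusted p under 0.05). The largest value was that of Csf1 (-0.67, 95% interval -1.32 to -0.03, unadjusted p = 0.0418, adjusted p = 0.764), with the fibroblast markers at a sum of 1.16 to 2.77 against 1.49 to 18.3 FPKM in the same libraries. The intervals for the receptor genes ran from -0.57 to 0.62. In the response to LPS, 0 of 8 genes and 0% of all genes differed by genotype (514 at an unadjusted p under 0.05), and in the response of LPS-treated cells to Dex 0 of 8 and 0% (311 at an unadjusted p under 0.05). Among the 5 to 19 genes tested within 500 kb of each member, C1qtnf6, near Csf2rb and Csf2rb2, was the only one called between genotypes in vehicle (0.98 ± 0.21, adjusted p = 0.0216).

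A list of 35 genes that act with these receptors was followed in the same fits, and 30 of them passed the filter. In WT, 13 were higher and 7 lower with LPS (55.7% of all genes called), and 7 were higher and 10 lower with Dex on top of LPS (34.1%), with medians of 0.08 and 0.13. Labelled AMPKa1-/-, 12 were higher and 10 lower with LPS (64.3% of all genes called) and 9 higher and 9 lower with Dex on top of LPS (37.7%), with medians of 0.01 and 0.09. With libraries centred on one median, LPS + Dex against LPS gave 11 higher and 10 lower in WT and 11 and 9 labelled AMPKa1-/-, and LPS against vehicle gave 13 and 6 in WT and 15 and 8 labelled AMPKa1-/-. In vehicle, 0 of the 30 were called between genotypes.

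Most tested genes of the JAK-STAT arm and its feedback rose with LPS, and most fell with Dex on top of it. Of 9 tested, 7 rose with LPS in WT and 8 fell with Dex on top of LPS, and labelled AMPKa1-/- these counts were 6 and 8. Over all genes tested, 55.7% and 34.1% were called in WT and 64.3% and 37.7% labelled AMPKa1-/-, in either direction. By direction, 2258 of the 11354 genes were higher with LPS in WT and 2295 labelled AMPKa1-/-. Lower with Dex on top of LPS were 1984 and 2088. The 6 of 9 with LPS are thus near the share called in either direction, but above the share that was higher. With libraries centred on one median, 7 of 9 rose with LPS labelled AMPKa1-/-. Jak1 (-0.21 ± 0.21 in WT and -0.28 ± 0.18 labelled AMPKa1-/-) and Stat5b (-0.06 ± 0.20 and -0.28 ± 0.18) were not called with LPS in either genotype. Cish, a feedback inhibitor induced by STAT5, was at 20.0 and 23.6 FPKM in WT LPS and at 14.3 to 21.3 FPKM labelled AMPKa1-/-, and at most 0.236 FPKM in every other library. Its levels with LPS + Dex, 0.0160 to 0.138 FPKM in WT, were close to those of vehicle (0 to 0.0491 FPKM), as those of Csf2 were. Socs3, the feedback inhibitor of G-CSF and IL-6 receptor signalling, kept more of its level. It rose from 5.01 ± 2.30 FPKM with vehicle to 858 and 1157 FPKM with LPS in WT and was at 377 ± 6.51 FPKM with LPS + Dex (-1.40 ± 0.46 against LPS, adjusted p = 0.0182). The log2 changes with LPS in WT were 7.44 ± 0.46 for Socs3 (adjusted p = 9.20e-14), 6.90 ± 0.25 for Socs1 (adjusted p = 1.37e-18) and 4.46 ± 0.13 for Cish (adjusted p = 1.59e-20). With Dex on top of LPS the largest falls were those of Cish (-4.39 ± 0.13), Socs1 (-2.67 ± 0.25) and the kinase gene Pim1 (-2.27 ± 0.22). Jak2, the kinase bound to the beta chains, rose with LPS (3.93 ± 0.24, adjusted p = 6.15e-14) and fell with Dex (-1.46 ± 0.24, adjusted p = 1.53e-05).

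Of 13 adaptor, kinase and phosphatase genes, 4 rose and 4 fell with LPS in WT, and 5 rose and 1 fell with Dex on top of LPS, where 55.7% and 34.1% of all genes were called. Centring the libraries on one median made the latter counts 8 and 1. With LPS the Src-family kinase gene Fgr rose (1.21 ± 0.22) and Tyrobp, which encodes the adaptor DAP12, fell (-1.41 ± 0.19). Fgr rose further with Dex, from 56.4 ± 8.92 FPKM (n = 2) to 200 ± 29.5 FPKM (1.81 ± 0.22, adjusted p = 1.59e-07), although Dex without LPS left it at 9.03 ± 1.69 FPKM, with vehicle at 24.0 ± 4.72 FPKM. Tyrobp rose with Dex on top of LPS (0.80 ± 0.19), as did Pik3r1 (0.68 ± 0.23), which encodes a regulatory subunit of PI3-kinase. Of 6 transcription factor genes, 2 rose and 2 fell with LPS in WT, and 2 rose and 1 fell with Dex on top of it. Cebpa, needed for Csf3r expression in granulocyte precursors, fell from 141 ± 13 FPKM to 9.27 and 12.1 FPKM (-3.61 ± 0.16, adjusted p = 9.06e-17) and rose with Dex to 37.2 ± 1.86 FPKM (1.72 ± 0.16). Cebpb rose with LPS by 2.21 ± 0.24 and Ets2 by 1.43 ± 0.21, and with Dex on top of LPS Ets2 rose (0.67 ± 0.21) and Irf8, a factor of monocyte and dendritic cell development, fell (-0.77 ± 0.18). Spi1, which encodes PU.1, was not called with LPS (-0.20 ± 0.16) or with Dex on top of it (0.19 ± 0.16). Il3ra, the IL-3 receptor alpha chain, was the only tested gene of the related ligands and receptors and fell with LPS (-1.04 ± 0.24, adjusted p = 0.000576). Il3 was listed at 0 in all 35 libraries, and Il34, the other ligand of CSF1R, did not exceed 0.38 FPKM.

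**Figure D5:**
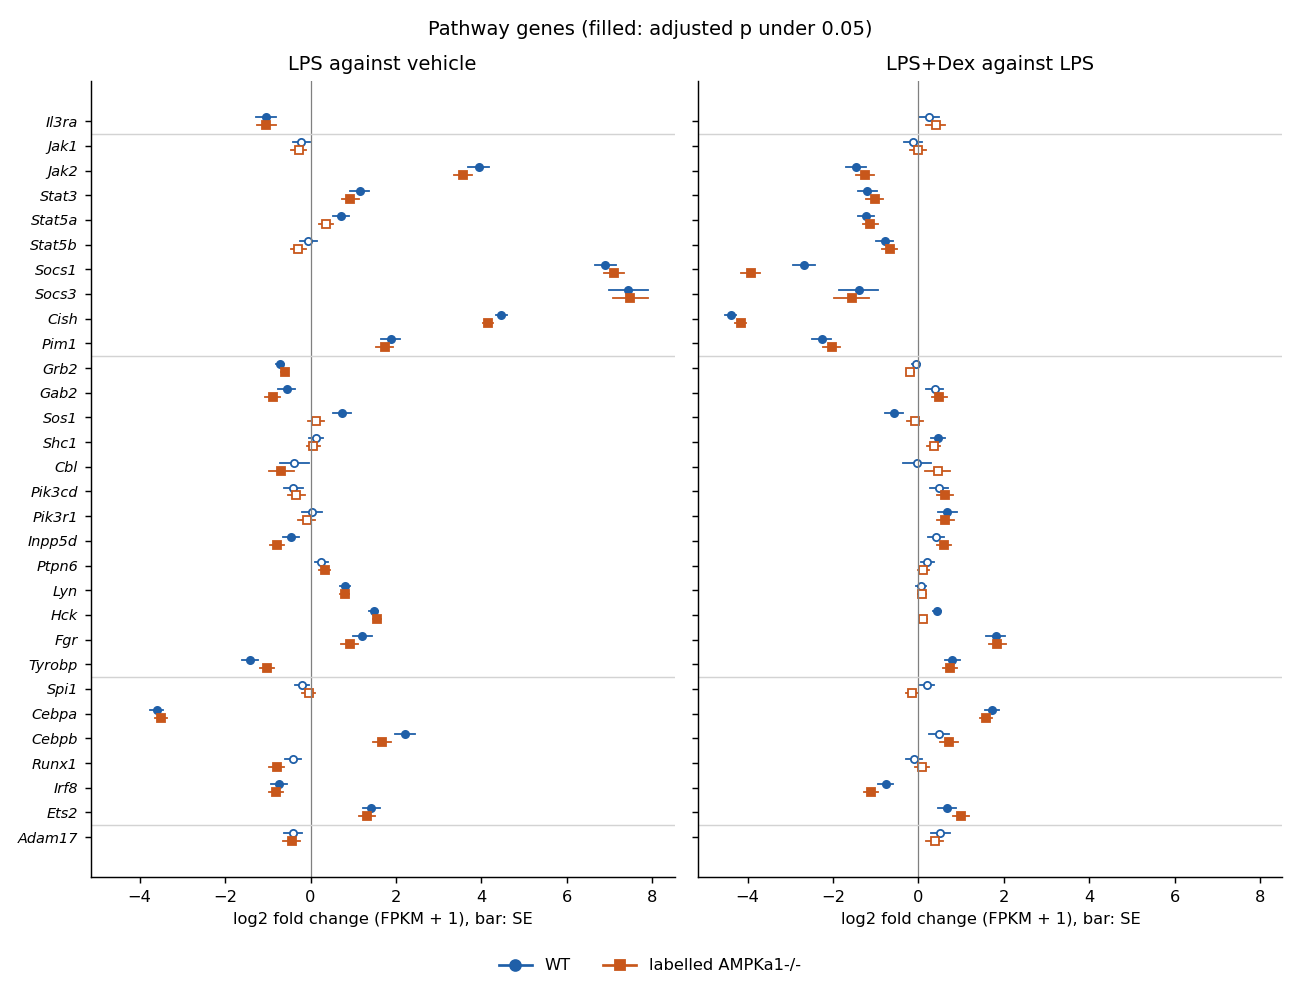
Fitted log2 fold change (FPKM + 1) with its SE for the 30 pathway genes tested, for LPS against vehicle and LPS + Dex against LPS, circles for WT and squares for labelled AMPKa1-/-, filled where the adjusted p is under 0.05. Socs1, Socs3, Cish and Jak2 lie right of 0 with LPS and left of 0 with Dex, and Cebpa lies on the opposite sides.

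The genes whose 12 group means followed each member most closely are given as a description, since the groups share libraries' depth and culture. Csf2 was followed by Alpk2, Slc1a2 and Cxcl5, a neutrophil chemokine gene (Pearson r = 0.998 or more), all of which were below 0.3 FPKM on average outside the LPS groups. Csf3 was followed by Wfdc18, Hip1r and Lss (r = 0.994 to 0.993). Csf1 was followed by Arrdc4, Luc7l and the collagen gene Col1a1 (r = 0.919, 0.895 and 0.890). Csf1r was followed by Fuca1, Eif4e3 and Tmco1 (r of at least 0.973), and Csf2ra by Pkib, Lrrc27 and Hvcn1 (r = 0.946 to 0.934). Csf2rb was followed by Marcksl1, Dynll1 and Pla2g4a (r = 0.991 to 0.985), Csf2rb2 by Ttll12, Ece1 and H2-Ab1 (r = 0.966 to 0.957), and Csf3r by Gbp9, Fabp3 and Rhbdd2 (r = 0.980 for Gbp9).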

How the data were processed

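RNA was extracted with TRIzol, and by the study's account replicates stand for different mice or their cultures. FPKM values were deposited by the authors for 47069 Ensembl identifiers, of which 46574 have a symbol in GENCODE M21. The submitters' processing notes name Bowtie2 2.2.3, TopHat2 2.0.12, HTSeq 0.6.1 and DESeq2, and the builds GRCm38 and mm10. Neither annotation release nor strand setting is given in the sources used here. Library totals, inferred from the spacing of low FPKM values, were 15837203 to 31955298 fragments. With GENCODE exon lengths, 55.1% to 63.4% of the values under 10 fragments came out whole within 0.001 in each library, and Csf2 and Csf3 did so in all 35. A single fragment on 1 kb was worth 0.0313 to 0.0631 FPKM. Fragments carry no molecular identifiers, so the limits of 3 fragments cover counting error only, whereas the 95% intervals come from the spread between libraries.

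From these values, limma 3.58.1 in R 4.3.3 (trend, 2-sided) fitted log2(FPKM + 1) over all 12 groups, so that the spread for WT LPS (2 libraries) comes from all groups (23 residual degrees of freedom), with adjustment over the 11354 genes averaging 1 FPKM or more. Fold changes on this scale understate changes of low genes. Alternatives were a pseudocount of 0.1, no filter, libraries centred on one median, only the groups compared, the replicate block and leaving out each library. Replicates of a group correlated at 0.967 to 0.993 across genes, and no pair shared an identical value above 0. Deviations from group means of same-numbered libraries labelled AMPKa1-/- correlated at 0.124 to 0.40 for Dex, LPS and LPS + Dex against vehicle and LPS + Dex against LPS. Every such pair was above the limit of 0.1, and the numbers were taken to pair these libraries. With DAMPs some pairs were below it: 0.023 to 0.445 against vehicle, 0.0527 to 0.248 against LPS and -0.494 to 0.125 for DAMPs + Dex against DAMPs. Errors and adjusted p values in the Results come from the fit without pairing, except where the replicate block is named. In WT the numbers were not taken to pair libraries. Correlations there ran from -0.307 to 0.471, although both pairs of LPS + Dex against LPS were above 0.1 (0.113 and 0.429). Figures and tables used Python 3.11.15, pandas 2.3.3 and matplotlib 3.10.9.

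The members, the pathway and marker lists and the tests were chosen with earlier results of these data known. Named were all members, the targeted gene Prkaa1, the pathway genes called with the largest changes (up to 3 per role), the 3 genes most like each member, and called neighbours. Jak2, Spi1, Il3, Il34 and single markers were named after their values were seen. Values of some listed genes are not reported here.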

Additional observations from a re-analysis of the deposited data

How the results depend on the processing

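Of 62 called changes of single members, 48 held under every alternative, and 77 of 716 recomputed values fell short of the threshold with none changing sign. Counts of members called moved by over 1.5 times as follows. LPS + Dex against LPS in WT gave 3 to 5 when each library was left out (5 with all libraries, 3 without WT LPS replicate 2), and the interaction of LPS and Dex in WT gave 3 with no filter, 3 with only the groups compared and 3 to 5 with each library left out (5 in the report). Labelled AMPKa1-/-, that interaction gave 1 with no filter, 2 with only the groups compared and 2 to 4 with each library left out (4 in the report), and DAMPs + Dex against DAMPs gave 2 to 4 (4 in the report, 2 without DAMPs + Dex replicate 1). With libraries centred on one median, DAMPs against vehicle labelled AMPKa1-/- gave 1 (Csf3r) and DAMPs against LPS gave 7 (Csf1, Csf2rb2 and Csf3r added). Calls lost with no filter were also Csf2rb2 in LPS + Dex against vehicle and Csf3r in DAMPs against LPS, both in WT, and Csf2ra in DAMPs + Dex against DAMPs in both genotypes, the last also with only the groups compared and, in WT, with libraries centred on one median. The cause of these moves was not tested, beyond the fewer libraries where libraries were left out.

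With the replicate block, the calls among members labelled AMPKa1-/- changed only for Csf1r in LPS + Dex against vehicle, and LPS against vehicle called 5 members there. In WT, same-numbered libraries were not taken as pairs (correlations from -0.307 to 0.471), though the labels do not say whether they are. There the replicate block added Csf2ra to LPS against vehicle (6 called), Csf2rb to LPS + Dex against vehicle (5 called) and Csf2ra to DAMPs against LPS (6 called). No replicate block could be fitted for the genotypes in vehicle, because animals differ between them. Counts of all genes called moved by over 1.5 times for LPS + Dex against LPS in WT (3871, and 2065 with only the groups compared), DAMPs against vehicle in WT (228, and 1 with only the groups compared, 26 to 372 with libraries left out) and labelled AMPKa1-/- (469, and 267 to 453 with libraries left out), the genotypes in vehicle (49, with 92 with no filter, 19 with only the groups compared and 28 to 58 with libraries left out, 58 without WT vehicle replicate 2), and the genotype interactions with LPS (0, with 118 with no filter, 5 with the replicate block and 0 to 13 with libraries left out) and with Dex on LPS (0, with 75 with no filter and 0 to 2 with libraries left out). WT LPS has 2 libraries, which limits every comparison that uses it.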
